A study of Danio rerio with 30 samples.

Results

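The FK506-binding prolyl isomerases of the endoplasmic reticulum examined here were the 5 zebrafish genes fkbp7, fkbp9, fkbp10b, fkbp11 and fkbp14. They were taken by gene symbol, ignoring case, from the 26847 symbols in the count matrices, and each symbol matched a feature: fkbp7 (ENSDARG00000010962), fkbp9 (ENSDARG00000005023), fkbp10b (ENSDARG00000045129), fkbp11 (ENSDARG00000037000) and fkbp14 (ENSDARG00000040695). Some of the genes have close relatives in the genome, fkbp10a for fkbp10b among them, and how reads shared with a relative were counted is not given in the sources used here, so the fkbp10b values carry that uncertainty.

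Prolyl isomerases turn the peptide bonds that precede proline, a slow step in folding that matters most for proline-rich proteins such as collagens. In humans, FKBP10 is a collagen chaperone whose loss causes brittle bones, and FKBP14 mutations cause a kyphoscoliotic form of Ehlers-Danlos syndrome. FKBP7, which binds the ER chaperone BiP in mouse, and FKBP9, with several isomerase domains, carry calcium-binding EF-hands, while FKBP11 is held in the membrane and is known from antibody-secreting and other highly secretory human cells. In the zebrafish embryo the notochord lays down a collagen-rich sheath, and the hatching gland packs enzymes that later digest the egg envelope.

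The study asked how 4 transcription factors of the unfolded protein response act in these secretory cell types. Xbp1 is activated by splicing of its mRNA, and Atf6, Creb3l1 and Creb3l2 are membrane proteins from which an active N-terminal part is cut. Single-cell RNA was counted from pools of about 30 whole embryos of the TL/AB strain per library. Of the 30 samples, the 22 made with V3 chemistry are used here, and the other 8 were not analysed here.

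At 12 hours post fertilization (hpf) there were 16 libraries in 12 groups. Crispants were made by injecting Cas9 with guide RNAs at the 1-cell stage, so they are injected founder embryos, and their editing rate is not given in the sources used here. Controls were 2 tyr crispant libraries (tyr encodes the pigment enzyme tyrosinase) and 2 uninjected wild-type libraries. The creb3l1 homozygous mutant, from a stable line and uninjected, had 2 libraries. The atf6, xbp1, creb3l1 and creb3l2 crispants and the xbp1+atf6 double crispant had 1 library each. The remaining groups were made by injection into creb3l1 mutants: 1 library of creb3l2+creb3l1, 1 with atf6 lost besides (atf6+creb3l2+creb3l1), 1 with xbp1 lost besides (xbp1+creb3l2+creb3l1), and 2 of the loss of xbp1, atf6, creb3l2 and creb3l1 at once (quadruple loss). Per the file headers, 8 of these libraries were written by Cell Ranger 3.1.0 and 8 by 6.1.2. The first set held tyr crispant 1, creb3l1 mutant 1, the atf6, xbp1, xbp1+atf6 and creb3l2 crispants, atf6+creb3l2+creb3l1 and creb3l2+creb3l1. The names of the deposited matrices carry the letters A and B for the same split, here called the Cell Ranger set. Median UMIs per cell ran from 11551.5 to 14250 in the first set and from 17836 to 21670 in the other. A set term therefore stands for any difference between the sets, not for the software alone. At 8 hpf there were 6 libraries, 1 per group, from embryos injected with mRNA. Embryos that were not crispants received 125 pg of nuclear mCherry or 40 pg of full-length creb3l2. Xbp1 crispants received 40 pg of mCherry, atf6-N, creb3l1-N or creb3l2-N, where N marks the activated form.

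After filtering, 62385 cells remained at 12 hpf and 19021 at 8 hpf, with 37677042 to 120722910 deposited UMIs per library at 12 hpf and 40560649 to 100654147 at 8 hpf. Pairs of libraries shared at most 13 cell barcodes, and the largest share of the smaller library, in another pair, was 0.378%. Cells were clustered without the 5 genes, the targeted genes, the gene lists described further on, or other secretory pathway, ribosomal protein and mitochondrial genes. Notochord-like cells (1471, with 50 to 210 per library) had UMIs of 12 or 13 of 14 notochord markers in each 12 hpf library. They also had UMIs of 5 to 9 of 10 hatching gland markers and 6 to 9 of 9 floor plate markers. Of 7 endoderm markers, 5 to 7 had UMIs in these cells. Such a count alone therefore does not set the cell type. Hatching gland-like cells (1179, with 31 to 147 per library) had UMIs of their markers except rnasel2, which was at 0. The summed notochord markers in notochord-like cells ran from 7897 to 11948 CPM (UMIs scaled to a common library total, here within a cell class) in the 5 libraries that lost both creb3l1 and creb3l2 and from 5890 to 12470 in the other 11. The summed hatching gland markers in hatching gland-like cells ran from 33432 to 47748 CPM in the 5 libraries that lost xbp1 and from 31958 to 42632 in the other 11. Over all cells, the targeted mRNAs were lower in every library labelled as their loss for xbp1 (117 to 288 CPM against 320 to 481), atf6 (6.40 to 12.9 against 36.7 to 65.2) and creb3l2 (3.95 to 6.92 against 14.01 to 22.2). The creb3l1 mRNA did not separate loss from intact libraries, with 3.54 to 13.7 CPM in loss libraries and 7.13 to 8.72 elsewhere. The 2 mutant libraries stood at 3.54 and 7.89 and the creb3l1 crispant at 5.50. The 5 libraries labelled as losing both creb3l1 and creb3l2 were all above the intact ones, at 10.2 to 13.7 CPM. The cause of this was not tested. A count of 3′ tags does not test a mutation that leaves the transcript in place, so the creb3l1 labels were not checked by it.

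In the 4 control libraries at 12 hpf, 4 of the 5 genes were highest in notochord-like cells and fkbp11 was highest in hatching gland-like cells. Levels are CPM of summed UMIs per cluster, as mean ± SD over the 4 libraries (2 tyr crispant, 2 wild type), in the 39 clusters with at least 10 cells in each library. For fkbp7, notochord-like cells stood at 790 ± 175 CPM (SD, n = 4). The next were an unnamed cluster led by aplnr2, admp and noto at 411 ± 73.4 and presomitic mesoderm-like cells at 365 ± 56.6, whose ranges overlapped each other but not that of the notochord-like cells. Fkbp14 reached 453 ± 122 CPM in notochord-like cells, and the noto-led cluster, a cluster led by twist1a and cxcl12b, and primordial germ cell-like cells followed at 186 ± 48.6, 103 ± 44.4 and 64.8 ± 17.8. The notochord-like range of fkbp14 did not reach that of the noto-led cluster, while each of those that followed overlapped its neighbour.

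For fkbp10b, the collagen chaperone, notochord-like cells at 130 ± 11.4 CPM were followed by the noto-led cluster at 40.3 ± 21.6 and the twist1a-led cluster at 12.3 ± 1.90, with no overlap between these neighbours. Fkbp9 was less sharply placed, with 661 ± 137 CPM in notochord-like cells, 426 ± 165 in the noto-led cluster and 344 ± 95.5 in the twist1a-led cluster, each overlapping the next. Its lowest cluster was primordial germ cell-like cells at 25.4 ± 12.6. For fkbp11, hatching gland-like cells stood at 1758 ± 277 CPM and notochord-like cells at 836 ± 81.6, and neither range touched the next. The hatching gland-like level per cluster is that of the larger of 2 clusters of that name. The hatching gland-like class used further on also holds the smaller (51 cells), so its levels differ somewhat. The noto-led cluster followed at 215 ± 32.3 and the twist1a-led cluster at 134 ± 37.2. Hatching gland-like cells ranked lower for the other 4 genes, at 22 of 39 for fkbp7, 14 for fkbp9, 20 for fkbp10b and 32 for fkbp14. Of the 2 clusters of primary neuron-like cells among the 39, 1 was led by neurod4 and pnx (137 cells). It was lowest for fkbp10b (0.474 ± 0.947 CPM) and fkbp14 (6.67 ± 3.0) and next to lowest for fkbp9 (37.9 ± 17.6) and fkbp11 (7.97 ± 2.65). The other, led by tlx2 (323 cells), ranked 25 for fkbp10b and 28 for fkbp11. A further cluster of that name, led by drgx and neurod1, was not among the 39.

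**Figure D1:**
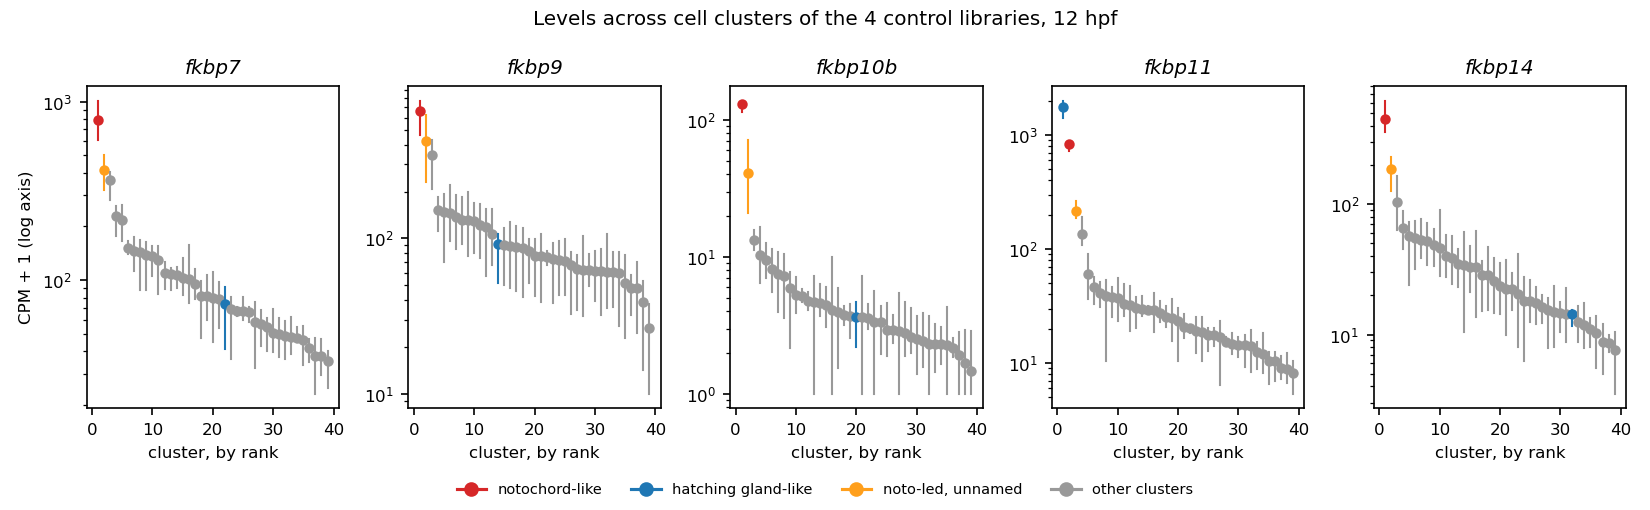
Level of each gene in the 39 clusters at 12 hpf, in CPM + 1 on a log axis, ordered by rank; points are means of the 4 control libraries and bars run from the lowest to the highest library. Notochord-like cells lead for fkbp7, fkbp9, fkbp10b and fkbp14, and the larger hatching gland-like cluster leads for fkbp11 at 1758 CPM.

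Notochord-like cells gave 41.2 ± 5.82% of all fkbp10b UMIs in the control libraries (SD, n = 4), 25.0 ± 6.24% of those of fkbp14, 16.6 ± 6.45% of fkbp11, 13.3 ± 4.09% of fkbp7 and 12.1 ± 3.24% of fkbp9. Hatching gland-like cells gave 57.2 ± 15.3% of the fkbp11 UMIs and between 1.34% and 2.86% on average of those of the others. The shares depend on how many cells of each type a library caught.

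Against all other cells of the same 4 libraries, the 5 genes were higher in notochord-like cells, by log2 differences of 2.79 ± 0.10 (SE) for fkbp9, 2.95 ± 0.15 for fkbp7, 4.06 ± 0.11 for fkbp14, 4.99 ± 0.10 for fkbp11 and 5.16 ± 0.15 for fkbp10b. This was edgeR's quasi-likelihood test with the library as a block and Benjamini-Hochberg adjustment over 11040 genes, in which an adjusted p below 0.05 counts as called, here and below. The largest adjusted p of these 5 was 2.23e-08, for fkbp7. Since the clusters were built from expression, 26.4% of tested genes were called higher in notochord-like cells, so a call by itself is common. In hatching gland-like cells 29.4% were called higher, among them fkbp11 with a log2 difference of 6.60 ± 0.11 (adjusted p = 1.27e-11) and fkbp9 with 0.46 ± 0.10 (adjusted p = 0.00162). Fkbp14 was lower there by a log2 difference of -0.49 ± 0.14 (adjusted p = 0.0077), against 34.3% of genes called lower, and that call was lost without either tyr crispant library. Between the classes, fkbp11 was lower in notochord-like than in hatching gland-like cells, with a log2 difference of -1.61 ± 0.09, and the other 4 were higher by 2.34 to 4.99, where 55.0% of genes were called. The fkbp9 call in hatching gland-like cells was lost with library totals in place of TMM scaling, at 0.056 (adjusted p = 0.652), a change that moved the median of all genes in that comparison from -0.15 to -0.55. Without the filter on low counts it was also lost (adjusted p = 0.0544), and the CPM ratio of fkbp9 to other cells ran from 0.948 to 1.31 over the 4 libraries.

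Across the 39 clusters, the genes whose log2(CPM + 1) followed each member most closely, among 11086 genes at 10 CPM or more somewhere, were lhfpl6, plp2 and asph for fkbp7 (Pearson's r of 0.839, 0.838 and 0.824). They were kdelr2a, gpx7 and fkbp10b for fkbp9 (0.847, 0.831 and 0.830) and plod1a, yif1a and fkbp14 for fkbp10b (0.916, 0.907 and 0.904). For fkbp11 they were ssr2, ostc and ssr4 (0.938, 0.936 and 0.927), and for fkbp14 they were pgm3, fkbp10b and acbd3 (0.909, 0.904 and 0.873). Among the 5 genes, r ran from 0.621 for fkbp9 with fkbp11 to 0.904 for fkbp10b with fkbp14. These are descriptions over clusters that share the same 4 libraries.

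In notochord-like cells, each of the 5 genes was lower with creb3l1 and creb3l2 lost together than in any other library, while libraries that lost xbp1, atf6 or both with these 2 factors intact stayed in or near the control range. Fkbp10b showed 113 and 137 CPM in tyr crispants and 134 and 136 in wild type. It was at 124 in the atf6, 131 in the xbp1 and 106 in the xbp1+atf6 crispant. With creb3l1 lost it was at 90.8 and 72.7 in the mutant and 78.1 in the crispant, and with creb3l2 lost at 67.0. With both lost it fell to 10.4 in creb3l2+creb3l1, 25.2 in atf6+creb3l2+creb3l1, 6.63 in xbp1+creb3l2+creb3l1 and 17.5 and 13.3 in quadruple loss. The 5 libraries lacking both factors therefore stood at 14.6 ± 7.14 CPM (SD, n = 5) against 108 ± 27.0 (n = 11), with no overlap.

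Fkbp14 stood at 622 and 465 CPM in tyr crispants, 368 and 359 in wild type, 566 in the atf6, 519 in the xbp1 and 627 in the xbp1+atf6 crispant. Its levels were 360 and 142 in the creb3l1 mutant, 281 in the creb3l1 crispant and 413 in the creb3l2 crispant. With both factors lost it was at 82.0, 118, 35.6, 38.4 and 54.2 in the same order as for fkbp10b. The closest libraries on the 2 sides were creb3l1 mutant 2 at 142 and atf6+creb3l2+creb3l1 at 118.

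Fkbp11 was at 887 and 888 CPM in tyr crispants, 854 and 716 in wild type, 981 in the atf6, 733 in the xbp1 and 741 in the xbp1+atf6 crispant. It was at 595 and 440 in the creb3l1 mutant, 562 in the creb3l1 crispant and 654 in the creb3l2 crispant, all below the lowest control. The share of all genes with this order was not counted. With both lost fkbp11 ran from 44.6 in xbp1+creb3l2+creb3l1 to 180 in atf6+creb3l2+creb3l1, or 110 ± 51.8 (n = 5) against 732 ± 163 (n = 11).

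Fkbp9 ran from 466 to 771 CPM in the 4 controls and from 504 to 581 in the atf6, xbp1 and xbp1+atf6 crispants. It was at 323 and 453 in the creb3l1 mutant, 454 in the creb3l1 crispant and 406 in the creb3l2 crispant. The 5 libraries lacking both factors were at 47.6 to 124. Fkbp7 ran from 609 to 1013 in controls and from 921 to 1044 with xbp1, atf6 or both lost. It was at 381 in the creb3l1 crispant and 639 in the creb3l2 crispant. Its 2 creb3l1 mutant libraries disagreed, with 1016 in the library that shares a set with tyr crispant 1 (1013) and 387 in the other. The controls in the set of the latter ran from 609 to 834. With both factors lost, fkbp7 stood at 89.9 to 190.

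For each of the 5 genes, all 5 libraries lacking both creb3l1 and creb3l2 were below all 11 others. Each Cell Ranger set held libraries of both sides. Of 6843 genes with a mean of 10 CPM or more in notochord-like cells, 2.76% showed this pattern. Hatching gland markers in these cells summed to 358 to 468 CPM in the 5 libraries and 297 to 490 in the other 11, and floor plate markers to 630 to 754 against 403 to 689. Endoderm markers summed to 817 to 1053 CPM in the 5 libraries and 429 to 1020 in the other 11. The part of any of these in the differences was not tested.

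**Figure D2:**
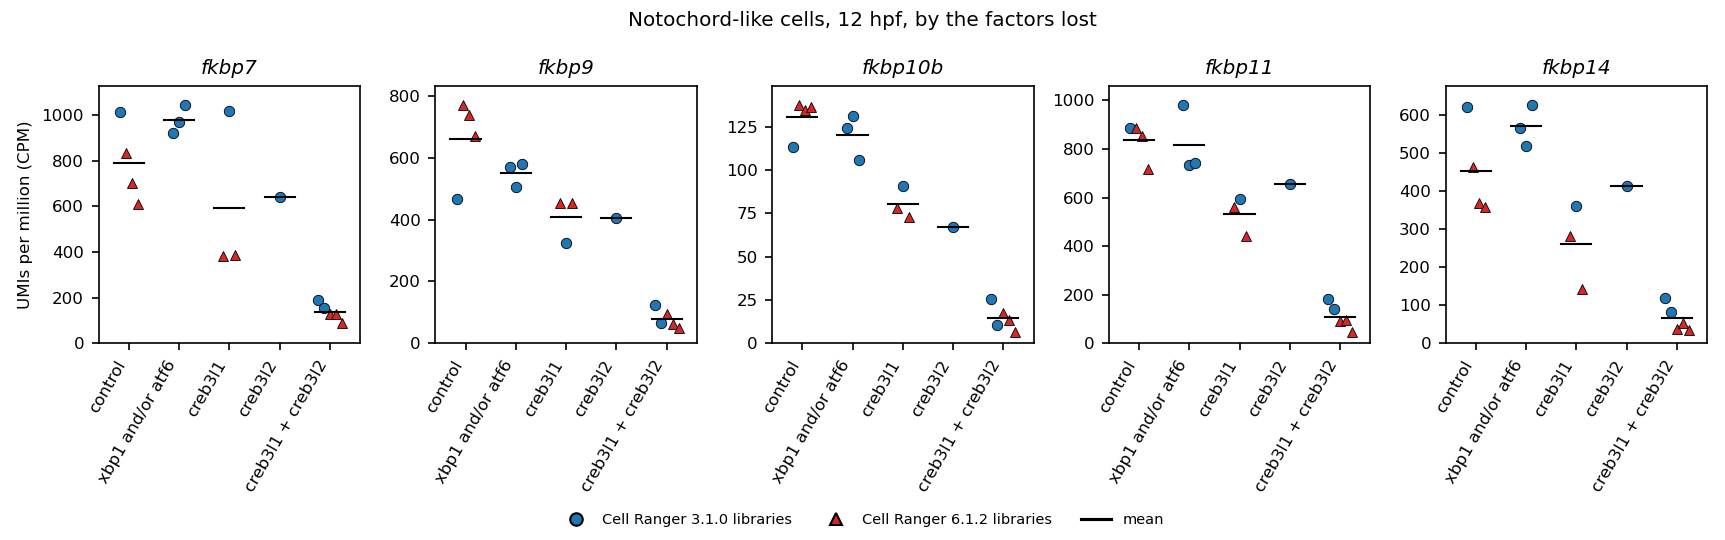
CPM of each gene in notochord-like cells of the 16 libraries at 12 hpf on linear axes, each point a library, grouped by the factors lost, with a line at the group mean and the symbol for the Cell Ranger set. The 5 libraries that lost both creb3l1 and creb3l2 lie below the other 11 for every gene, for fkbp10b at 6.63 to 25.2 against 67.0 to 137 CPM.

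Because 8 of the 12 groups had 1 library, the losses were estimated with an additive model over all 16 libraries, with a term for each lost factor and for the Cell Ranger set. Creb3l2 loss lowered all 5 genes in notochord-like cells, by log2 changes of -1.88 ± 0.27 (SE) for fkbp10b, -1.60 ± 0.25 for fkbp9, -1.54 ± 0.22 for fkbp7, -1.54 ± 0.22 for fkbp11 and -1.47 ± 0.23 for fkbp14. The adjusted p-values were 0.000401, 0.000878, 0.000401, 0.000469 and 0.000833, and 2.96% of the 8459 genes tested were called lower. These calls held with each library left out in turn, with the median of all genes at -0.0081. Of the 6 libraries that lost creb3l2, 5 had also lost creb3l1, and the calls were not made for the single loss once a joint term was fitted, as given further on.

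Creb3l1 loss lowered the same 5 genes by log2 changes of -1.23 ± 0.21 for fkbp14 (adjusted p = 0.00921), -1.18 ± 0.24 for fkbp9 (0.0216), -1.13 ± 0.21 for fkbp11 (0.0136), -1.0 ± 0.23 for fkbp10b (0.0367) and -0.86 ± 0.20 for fkbp7 (0.0357). The background was 1.23% of genes called lower. These calls were less steady: 5 were made with all libraries, 0 without the creb3l2 crispant, 1 without creb3l1 mutant 2 and 2 without tyr crispant 2. There were 3 without the xbp1 crispant, the xbp1+atf6 crispant, creb3l1 mutant 1 or creb3l2+creb3l1, and 4 without atf6+creb3l2+creb3l1 or without the set term, where fkbp7 was the gene not called. Fkbp14 lost its call with only the first of these left out, fkbp11 with the first or creb3l1 mutant 2, and the fitted changes stayed between -0.50 and -1.46 over the 5 genes.

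Xbp1 and atf6 loss called none of the 5 in notochord-like cells, where 0.236% and 0.0118% of genes were called lower. The median log2 change of the 5 was -0.50 for xbp1 and -0.067 for atf6, the latter changing sign with library totals or without the set term. At an unadjusted p below 0.05 there were 3 for xbp1 and 0 for atf6, and DESeq2 called 1 (fkbp11, -0.86, adjusted p = 0.0147) and 0. Without the filter on low counts 2 were called for xbp1. The 3 were fkbp11 with -0.85 ± 0.23 (adjusted p = 0.222), fkbp9 with -0.69 ± 0.26 (0.479) and fkbp14 with -0.50 ± 0.23 (0.609).

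**Figure D3:**
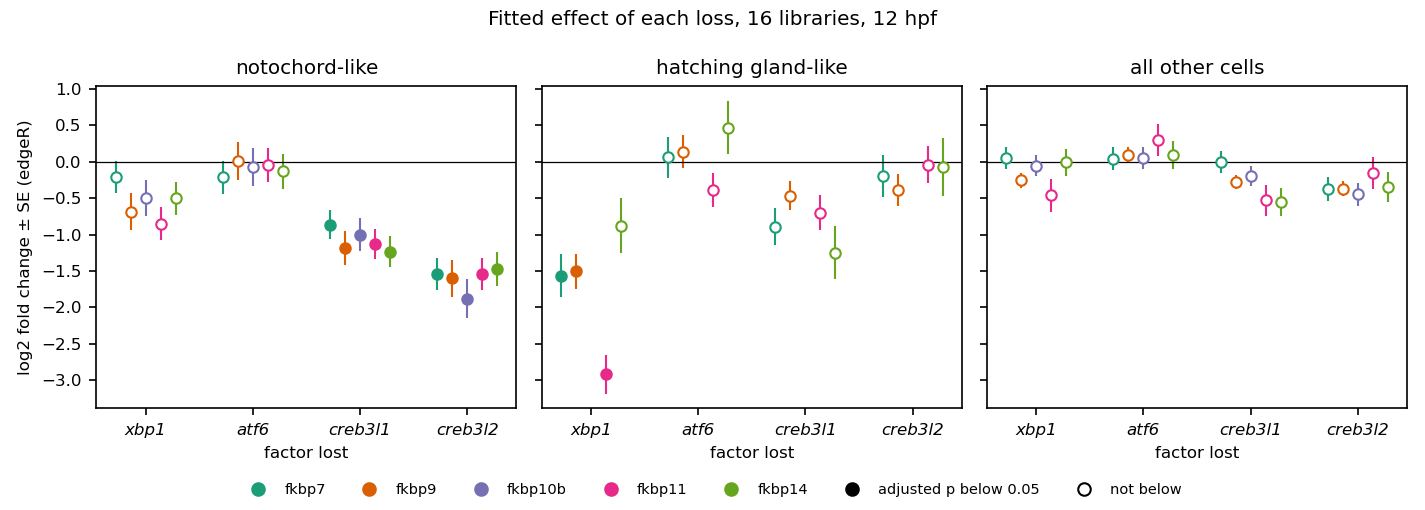
Fitted log2 change of each gene in the additive model for loss of xbp1, atf6, creb3l1 or creb3l2 in notochord-like, hatching gland-like and all other cells at 12 hpf, with bars of 1 SE and filled points for an adjusted p below 0.05. Creb3l1 loss and creb3l2 loss are filled for 5 genes each in notochord-like cells and xbp1 loss for fkbp7, fkbp9 and fkbp11 in hatching gland-like cells.

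An additive model takes the 2 losses to add on the log scale, and a term for their joint effect was fitted as well, added after the data had been seen. The fitted change when both factors were lost was -3.14 ± 0.25 for fkbp10b, -3.05 ± 0.21 for fkbp9, -2.90 ± 0.18 for fkbp11, -2.90 ± 0.21 for fkbp14 and -2.61 ± 0.20 for fkbp7 on the log2 scale. All 5 were called, the largest adjusted p being 2.17e-07 for fkbp10b, where 7.45% of 9187 genes were called lower, and they held without any 1 library. The departure from additivity was negative for each gene, from -1.35 ± 0.44 for fkbp14 to -1.83 ± 0.43 for fkbp9, but 0 were called, with 5 at an unadjusted p below 0.05 and adjusted p of at least 0.415. By edgeR 0% of genes were called for this term. With this term in the model, loss of creb3l2 with creb3l1 intact called 0 of 5, with 2 at an unadjusted p below 0.05 and changes from -0.52 ± 0.34 for fkbp9 (adjusted p = 0.95) to -0.99 ± 0.42 for fkbp10b (0.892), where 0% of genes were called lower. Loss of creb3l1 with creb3l2 intact called 0 of 5 as well, with 5 at an unadjusted p below 0.05 and changes from -0.50 ± 0.20 for fkbp7 (adjusted p = 0.385) to -0.87 ± 0.22 for fkbp14 (0.152), where 0.0435% were called lower. The departure could not be fitted without the creb3l2 crispant, which is the 1 library with creb3l2 lost and creb3l1 intact.

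Quadruple loss against tyr crispants, the stated control, lowered all 5 genes in notochord-like cells (2 libraries a group, with wild type and creb3l1 mutant sharing the estimate of spread). The log2 changes were -3.77 ± 0.49 for fkbp14, -3.47 ± 0.33 for fkbp11, -3.21 ± 0.36 for fkbp10b, -3.18 ± 0.36 for fkbp9 and -3.06 ± 0.46 for fkbp7, with adjusted p from 0.0011 for fkbp11 to 0.0046 for fkbp7. The background was 2.79% of 8343 genes called lower. The fkbp7 call was lost without either quadruple library, with fitted changes between -2.87 and -3.23.

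Fkbp11 in hatching gland-like cells was low wherever xbp1 was lost. It stood at 1966 and 2031 CPM in tyr crispants, 1452 and 1722 in wild type and 2562 in the atf6 crispant. It was at 1178 and 1172 in the creb3l1 mutant, 1398 in the creb3l1 crispant, 2194 in the creb3l2 crispant, 1206 in creb3l2+creb3l1 and 1146 in atf6+creb3l2+creb3l1. With xbp1 intact, libraries that lost creb3l1 ran from 1146 to 1398 CPM and those with creb3l1 intact from 1452 to 2562. The share of all genes with such a split was not counted, so it is not read as an effect of creb3l1 loss. That loss was not called for fkbp11 in these cells, as given below. With xbp1 lost, fkbp11 was at 457 in the xbp1 crispant, 98.8 in xbp1+atf6, 148 in xbp1+creb3l2+creb3l1 and 124 and 151 in quadruple loss. The 5 xbp1-loss libraries, at 196 ± 148 CPM (SD), did not overlap the other 11, at 1639 ± 488. Libraries of both sides were found in each Cell Ranger set. Of 5616 genes at 10 CPM or more, 4.70% were likewise lower without overlap.

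Fkbp7 was at 8.24 to 26.2 CPM with xbp1 lost and 19.3 to 91.0 with it intact, and fkbp9 at 17.5 to 34.6 and 21.4 to 127. Both overlapped: creb3l1 crispant (19.3) was the lowest intact library for fkbp7 and creb3l2+creb3l1 (21.4) for fkbp9. Fkbp14, at 1.18 to 18.4 CPM over all libraries, rested on 3 to 60 UMIs a library, and fkbp10b on 0 to 16, which failed the filter on low counts, so 4 of the 5 genes were tested here. Summed notochord markers in these cells ran from 38 to 94 CPM.

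Xbp1 loss lowered 3 of the 4 genes tested in hatching gland-like cells. The log2 changes were -2.92 ± 0.27 (SE) for fkbp11 (adjusted p = 4.92e-07), -1.56 ± 0.30 for fkbp7 (0.00158) and -1.5 ± 0.24 for fkbp9 (0.00023), and these held with each library left out. The change of fkbp14 was -0.88 ± 0.38 (adjusted p = 0.174), and it was called without creb3l1 mutant 2 (-0.98, adjusted p = 0.0241). Here 7.19% of 8648 genes were called lower. Creb3l1 loss called 0 of 4, against 0.705% of genes called lower, though all 4 had an unadjusted p below 0.05. The values were -1.25 ± 0.37 for fkbp14 (adjusted p = 0.103), -0.89 ± 0.26 for fkbp7 (0.0974), -0.70 ± 0.24 for fkbp11 (0.165) and -0.47 ± 0.20 for fkbp9 (0.283), and DESeq2 also called 0. Without the xbp1+atf6 crispant the fkbp11 change was called, and without the creb3l1 crispant that of fkbp14. Creb3l2 and atf6 loss called 0 of 4 by edgeR and by DESeq2, with 0 at an unadjusted p below 0.05 and medians of -0.14 and 0.098, against 0% and 0.0116% of genes called lower.

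**Figure D4:**
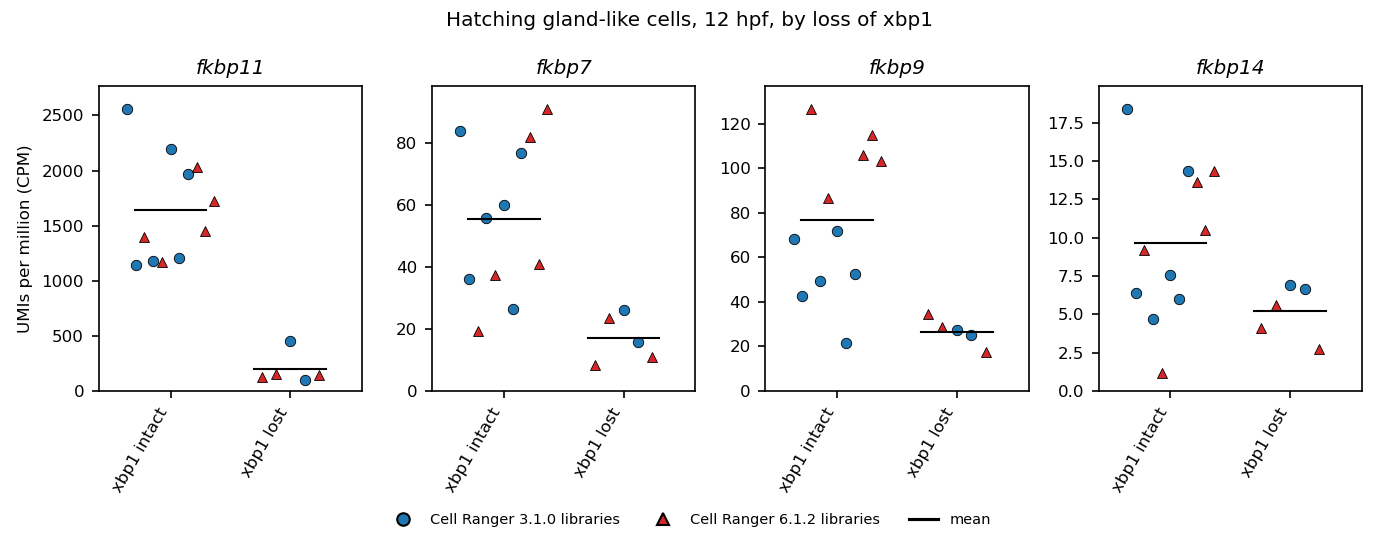
CPM of the 4 genes tested in hatching gland-like cells of the 16 libraries at 12 hpf on linear axes, each point a library, split by loss of xbp1, with a line at the mean and the symbol for the Cell Ranger set. The 5 libraries that lost xbp1 lie at 98.8 to 457 CPM for fkbp11, below the other 11, and overlap them for fkbp7, fkbp9 and fkbp14.

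Quadruple loss against tyr crispants gave the same 3 calls in hatching gland-like cells, against 3.77% of genes called lower: fkbp11 with a log2 change of -4.11 ± 0.31 (adjusted p = 0.0002), fkbp7 with -2.52 ± 0.52 (0.0185) and fkbp9 with -1.58 ± 0.37 (0.0373). The change of fkbp14 was -1.73 ± 0.62 (adjusted p = 0.186). As in notochord-like cells, this comparison had no set term. The fkbp7 call was lost without tyr crispant 1 or quadruple 1, and the fkbp9 call without tyr crispant 2 or either quadruple library, over changes from -1.08 to -1.93 for fkbp9 and -2.04 to -3.56 for fkbp7. With library totals, which moved the median of all genes from 0.028 to 0.27, fkbp9 was not called (adjusted p = 0.125).

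Whether the losses acted differently in the 2 cell types was tested within libraries, with the library as a block and 9946 genes, in a model that again takes the losses as additive. For xbp1 loss, the change in hatching gland-like cells was lower than in notochord-like cells by log2 -2.16 ± 0.30 for fkbp11 (adjusted p = 8.13e-05), -1.38 ± 0.30 for fkbp7 (0.00707) and -0.78 ± 0.18 for fkbp9 (0.0162), where 3.04% of genes were called lower. For creb3l2 loss it was higher by 1.62 ± 0.30 for fkbp11 (adjusted p = 0.0031), 1.33 ± 0.29 for fkbp7 (0.0133) and 1.17 ± 0.18 for fkbp9 (0.000805), where 1.96% were called higher. Fkbp14 and fkbp10b were not called in either, fkbp14 giving 1.22 ± 0.39 (adjusted p = 0.168) for creb3l2, a difference that was called without the creb3l2 crispant, at 2.46 (adjusted p = 0.00587). The xbp1 difference lost its call for fkbp7 without the xbp1+atf6 crispant, and for fkbp9 without the atf6, xbp1 or xbp1+atf6 crispant, with values from -0.60 to -0.84. The creb3l2 difference of fkbp7 lost its call without creb3l1 mutant 1 or creb3l2+creb3l1, with values from 1.11 to 1.95 over the libraries left out. For creb3l1 and atf6 loss 0 of the 5 were called, with 1 (fkbp9, 0.70 ± 0.16, adjusted p = 0.0636) and 0 at an unadjusted p below 0.05, and 0.191% and 0% of genes called. The fkbp9 difference for creb3l1 was called with library totals (adjusted p = 0.0426) and without the atf6 crispant.

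In all other cells, summed as 1 class and thus a mixture in which fewer expressing cells and less RNA per cell cannot be told apart, no single loss was called for any of the 5 genes by edgeR or by DESeq2. In the 4 controls fkbp7 was at 95.04 ± 15.5 CPM (SD), fkbp9 at 89.8 ± 26.0, fkbp14 at 25.4 ± 7.59, fkbp11 at 24.4 ± 3.44 and fkbp10b at 3.42 ± 0.835. At an unadjusted p below 0.05 there were 1 for xbp1, 0 for atf6, 3 for creb3l1 and 3 for creb3l2, and 0.0113%, 0.00566%, 1.43% and 0.0226% of genes were called lower. The median log2 changes of the 5 were -0.054, 0.086, -0.28 and -0.37. With creb3l1 and creb3l2 both lost, the term added later called 3 of 5, against 4.63% of genes lower: fkbp14 with -0.82 ± 0.19 (adjusted p = 0.02), fkbp9 with -0.67 ± 0.11 (0.0039) and fkbp10b with -0.64 ± 0.16 (0.0264). The fkbp10b and fkbp14 calls were lost without the xbp1+atf6 crispant, creb3l2+creb3l1, atf6+creb3l2+creb3l1 or xbp1+creb3l2+creb3l1, and that of fkbp10b also without the xbp1 crispant. Without the set term fkbp9 (adjusted p = 0.11) and fkbp14 (0.117) were not called. Quadruple loss called 0 of 5 by edgeR, with fkbp14 at -1.54 ± 0.48 (adjusted p = 0.272) the 1 gene under an unadjusted 0.05, against 0.307% of genes lower, and DESeq2 called 1. In hatching gland-like cells the same joint term called fkbp9, with -1.09 ± 0.19 (adjusted p = 0.0083) where 0.986% of genes were lower, and the call was lost without creb3l2+creb3l1 or without the set term (adjusted p = 0.278).

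Other genes of ER folding and collagen biosynthesis, in 6 lists, give the setting. In the additive model, after creb3l2 loss in notochord-like cells, the lists called lower 5 of 9 EF-hand proteins of the ER and Golgi lumen (median log2 change -1.16), 4 of 15 collagen-modifying enzymes and partners (-0.34), 1 of 20 ER lumen chaperones (-0.22) and 0 of 9 other FKBP genes (0.25), 12 cyclophilins (0.042) and 15 collagen chains (0.18). None was called higher. The reticulocalbins rcn1 and rcn3, calcium-binding ER proteins, fell by 1.26 ± 0.15 and 2.82 ± 0.51 on the log2 scale and calumenin a (calua) by 1.23 ± 0.19. The prolyl 3-hydroxylase genes p3h3 and p3h1 fell by 0.99 ± 0.16 and 0.84 ± 0.15, sparc, a collagen-binding matrix protein, by 2.03 ± 0.43, and the protein disulfide isomerase pdia5 by 1.22 ± 0.20. After creb3l1 loss 3 of 15 collagen-modifying genes fell (sparc by 1.80 ± 0.37, p3h3 by 0.66 ± 0.15 and crtap by 0.51 ± 0.12), with rcn1 (by 1.09 ± 0.14), pdia6 (by 0.67 ± 0.14) and the other FKBP gene fkbp16 (by 1.45 ± 0.33), while the chaperone hsp90b1 rose by 0.81 ± 0.17. The cyclophilins and collagen chains had 0 called. With the joint term in the model, loss of creb3l2 with creb3l1 intact called 0 genes of the 6 lists (medians -0.47 for EF-hand proteins and -0.14 for collagen-modifying genes). Loss of creb3l1 with creb3l2 intact called 1, rcn1. Loss of both called lower 5 of 9 EF-hand proteins, 7 of 15 collagen-modifying genes, 2 of 20 chaperones and 1 of 9 other FKBP genes. It called higher 1 EF-hand protein and 1 chaperone.

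After xbp1 loss, notochord-like cells had calls among the chaperones. There, 7 of 20 chaperones were called lower (median -0.82), led by the calreticulin gene calr3b (fell by 1.63 ± 0.20), hsp90b1 (by 1.5 ± 0.20) and hspa5, which encodes BiP (by 1.28 ± 0.17), and 0 genes of the other 5 lists. Hatching gland-like cells had 20 of 21 chaperones called lower (median -1.78), among them sdf2l1 (fell by 1.35 ± 0.11), dnajc3a (by 2.22 ± 0.19) and pdia6 (by 2.31 ± 0.20). So were 7 of 9 EF-hand proteins (-1.10) and 8 of 14 collagen-modifying genes (-0.96), the latter including plod3 (by 1.21 ± 0.15) and p4hb (by 1.79 ± 0.23). Of other FKBP genes 1 of 7 was lower, fkbp2, an ER member of the family, which fell by 1.64 ± 0.15, and of cyclophilins 1 of 12, the ER form ppib, which fell by 1.66 ± 0.15. The 7 collagen chains had 0 called. Creb3l2 loss called 0 in the 6 lists there, and atf6 loss 0 in the 6 lists in each of the 3 classes of cells.

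Quadruple loss in notochord-like cells called lower 5 of 9 EF-hand proteins (median -2.22), 5 of 15 collagen-modifying genes (-1.02), 6 of 20 chaperones (-1.22) and 1 of 8 other FKBP genes, fkbp16 (fell by 2.11 ± 0.45), with 0 cyclophilins and 0 collagen chains. In hatching gland-like cells it called 14 of 21 chaperones (-2.19), 5 of 9 EF-hand proteins (-1.26), 2 of 14 collagen-modifying genes (-0.97), fkbp2 (fell by 2.20 ± 0.42) and ppib (by 1.82 ± 0.30).

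At 8 hpf, each of the 5 genes stood far higher in the libraries injected with creb3l1-N or creb3l2-N than in the mCherry library of the same xbp1 crispant background. With 1 library per group no test was possible, and the 95% intervals cover counting error only. Over all cells fkbp11 was at 5.97 CPM with mCherry, 25.3 with atf6-N, 400 with creb3l1-N and 516 with creb3l2-N. The ratios to mCherry were 4.24 [3.78, 4.77], 67.1 [60.4, 74.7] and 86.4 [77.8, 96.2]. Fkbp9 was at 14.9, 120, 777 and 757 CPM, with ratios of 8.07 [7.52, 8.66], 52.0 [48.7, 55.7] and 50.7 [47.4, 54.2]. Fkbp10b was at 1.84, 3.08, 59.4 and 96.8 CPM, with ratios of 1.67 [1.32, 2.13], 32.2 [26.7, 39.4] and 52.5 [43.5, 64.1].

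Fkbp14 stood at 7.54, 47.2, 150 and 199 CPM in the same 4 libraries, with ratios of 6.26 [5.67, 6.93], 19.8 [18.0, 21.9] and 26.3 [24.0, 29.0]. Fkbp7, at 75.2 CPM with mCherry, had the smallest ratio of the 5 for each factor: 98.0 CPM and 1.30 [1.25, 1.35] with atf6-N, 591 and 7.85 [7.62, 8.10] with creb3l1-N, and 593 and 7.88 [7.64, 8.12] with creb3l2-N. So the 5 genes passed 2-fold with creb3l1-N and with creb3l2-N, where 12.7% of 15508 and 14.4% of 15803 genes did so upwards, and 3 of 5 (fkbp9, fkbp11 and fkbp14) with atf6-N, where 13.6% of 15541 did. By fold, fkbp11 ranked 67 from the top of these genes with creb3l2-N and 126 with creb3l1-N. Fkbp9 ranked 122 and 155, fkbp10b 119 and 212, fkbp14 208 and 301, and fkbp7 537 and 597. The mRNA of the injected gene was counted at 236 CPM for creb3l1 and 399 for creb3l2 in these libraries, and at 414 for atf6 in the atf6-N library. With mCherry (40 pg) the same genes stood at 6.07, 14.1 and 48.3 CPM. These counts do not separate injected mRNA from the embryo's own.

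Between creb3l2-N and creb3l1-N over all cells, the CPM ratio was 1.00 [0.99, 1.02] for fkbp7, 0.974 [0.964, 0.985] for fkbp9, 1.29 [1.27, 1.31] for fkbp11, 1.33 [1.30, 1.36] for fkbp14 and 1.63 [1.57, 1.69] for fkbp10b. The lists at 8 hpf stood elsewhere for atf6-N: 18 of 21 chaperones passed 2-fold upwards (median log2 ratio 5.16), against 8 of 21 with creb3l1-N (0.43) and 7 of 21 with creb3l2-N (0.59). Collagen-modifying genes passed in 8, 11 and 13 of 17 cases (medians 0.54, 1.93 and 2.22), and EF-hand proteins in 6 of 9 with each factor (1.34, 2.4 and 2.55). Other FKBP genes passed upwards in 1, 2 and 4 of 12 cases (medians 0.24, -0.23 and 0.035).

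In embryos that were not xbp1 crispants, full-length creb3l2 (40 pg, creb3l2 mRNA at 72.4 CPM) stood beside mCherry at another dose (125 pg). Over all cells the levels were 221 and 130 CPM for fkbp7, 161 and 15.2 for fkbp9, 5.22 and 1.26 for fkbp10b, 42.7 and 14.3 for fkbp11 and 30.3 and 5.66 for fkbp14. The doses differ, so no ratio is given. The xbp1 mRNA was at 131 to 258 CPM in the 4 crispant libraries and 425 and 715 in these.

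Other cell classes at 8 hpf also differed between these libraries. In tailbud-like cells at 8 hpf fkbp9 was at 8.10 CPM with mCherry (40 pg), 16.5 with atf6-N, 721 with creb3l1-N and 685 with creb3l2-N, and fkbp11 at 6.66, 16.5, 251 and 430. Fkbp14 in the same cells and order of libraries was at 6.37, 1.83, 129 and 179 CPM. An unnamed cluster of 346 cells, in which 7 tailbud markers were detected, drew 100% of its cells from a single library. So did unnamed clusters of 856, 327, 257, 234, 194 and 61 cells. The tailbud-like class and the other named classes may thus hold different cells by library. Their atf6-N values, here and below, are not read as an effect of atf6-N. In periderm-like cells, the outer covering layer, fkbp14 was already at 174 CPM with mCherry, and at 245, 273 and 276 with atf6-N, creb3l1-N and creb3l2-N, ratios of 1.41 to 1.58, while fkbp7 went from 9.43 to 12.6, 294 and 290 and fkbp10b from 1.18 to 4.58, 16.3 and 28.2. Hatching gland-like cells numbered 20 to 62 a library, with a median of 6364 UMIs a cell in the creb3l1-N library against 23705 or more in the others, and there fkbp11 was at 13.4, 46.9, 300.2 and 934 CPM and fkbp14 at 3.35, 21.6, 101 and 288. There creb3l2-N exceeded creb3l1-N for all 5 genes, from 1.53 [1.37, 1.70] for fkbp9 to 3.66 [2.54, 5.39] for fkbp10b. The share of all genes that did so was not counted. The same ratio in notochord-like cells was 0.92 [0.87, 0.98] for fkbp7 and 0.88 [0.83, 0.93] for fkbp9. It ran from 1.26 to 1.32 there for fkbp10b, fkbp11 and fkbp14. In notochord-like cells fkbp10b was at 1.48, 3.30, 92.4 and 116 CPM, but different clusters held these cells by library: 1 of the 3 notochord-like clusters drew 100% of its cells from a single library.

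**Figure D5:**
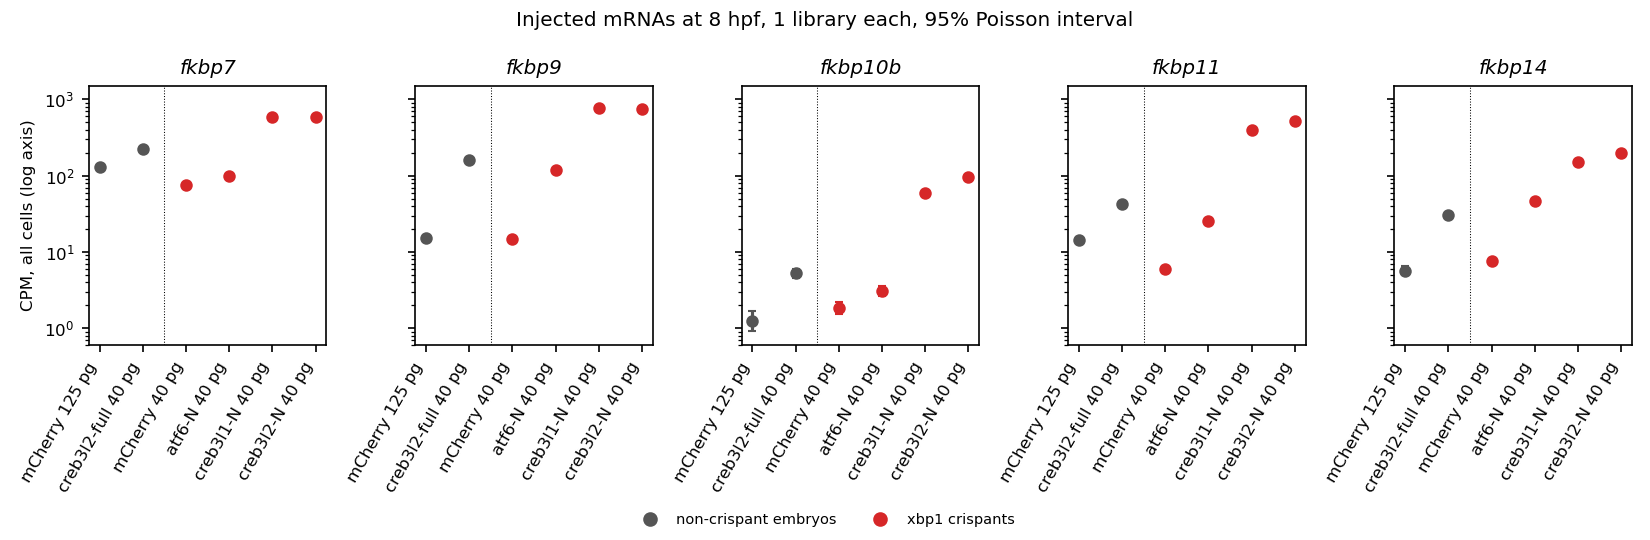
CPM of each gene over all cells of the 6 libraries at 8 hpf on a log axis, each point 1 library with its 95% counting interval. Creb3l1-N and creb3l2-N stand above mCherry (40 pg) for every gene, for fkbp11 at 400 and 516 against 5.97 CPM.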

How the data were processed

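Single-cell UMI counts per gene and barcode were used as deposited, 10x matrices that the authors wrote with Cell Ranger 3.1.0 (8 libraries) or 6.1.2 (14 libraries), per the file headers. The genome build and annotation, and how reads mapping to several genes were counted, are not given in the sources used here. Features sharing a symbol (1354 of 27597) were summed. Kept barcodes had at least 1000 UMIs, of which at most 10% were mitochondrial (71539 barcodes at 12 hpf and 26062 at 8 hpf before filtering), and the highest scrublet scores were removed at 0.8% per 1000 barcodes (1.40% to 4.90% of a library at 12 hpf, 1.46% to 4.10% at 8 hpf). The automatic doublet call had marked up to 7.34% of a 12 hpf library and up to 0.65% of an 8 hpf library.

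Cells of each stage were clustered in scanpy 1.11.5 (2000 variable genes, 40 principal components, 15 neighbours, Leiden resolution 2). The 402 genes left out were the 5 genes, the targeted genes, the gene lists, and other secretory pathway, ribosomal protein and mitochondrial genes. Clusters were named from 21 marker lists. The names were rebuilt here and may differ from the study's. UMIs were summed per library and class and tested with edgeR 4.0.16 (TMM, filterByExpr, glmQLFit and glmQLFTest, two-sided, Benjamini-Hochberg over all genes tested) in R 4.3.3. The additive fit had 10 residual degrees of freedom and the quadruple comparison 4. Alternatives were DESeq2 1.42.0, library totals, no low-count filter, no set term, a term for injection, 2000 UMIs as the minimum, doublets kept, the noto-led cluster taken as notochord-like, and each library left out. The joint creb3l1 and creb3l2 term and the noto-led cluster alternative were chosen after seeing the data. The fits were tested on simulated data. Each library is a pool of embryos, and nothing says that replicate pools came from separate clutches, so p-values measure the spread between libraries. In the additive fit, where most groups had 1 library, that spread also holds any departure of the groups from additivity. Intervals are exact, cover 95% and concern counting error only. The ratios of CPM for the 5 genes used no pseudocount, and likeness used log2(CPM + 1). The shares past 2-fold, the ranks and the list values at 8 hpf added a small constant to each count. They covered genes with at least 30 UMIs over the 2 libraries compared.

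The text names the 5 genes in every comparison, up to 3 called genes per list with the smallest p, and the 3 genes most alike to each. The 5 genes and the lists were chosen with earlier results of these data known.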

Additional observations from a re-analysis of the deposited data

Results flagged for a closer look

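The effect of a loss differed between hatching gland-like and notochord-like cells for 3 of the 5 genes under each of 2 losses, by edgeR's test of the class by loss term within libraries. For loss of xbp1 the log2 change in hatching gland-like minus that in notochord-like cells was -2.16 for fkbp11, -1.38 for fkbp7 and -0.78 for fkbp9. For loss of creb3l2 it was 1.62 for fkbp11, 1.33 for fkbp7 and 1.17 for fkbp9. This difference between cell types thus had opposite signs for the 2 losses in the same 3 genes. The signs were the same in fkbp10b and fkbp14, which were not called. Over the 5 genes the difference ran from -2.16 to -0.44 for xbp1 and from 0.45 to 1.62 for creb3l2. The model took the losses as additive, without a joint term. Of the 6 libraries that lost creb3l2, 5 had also lost creb3l1, so its values do not stand for the single loss. Some calls for fkbp7 and fkbp9 were lost with a library left out, as given above.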

How the results depend on the processing

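Of 152 comparisons of a count of called genes with its value under an alternative other than leaving out a library, 141 stayed within 1.5 times. A count that fell by 1 call could stay within this limit, so some lost calls given above are not among the exceptions. They include fkbp9 in hatching gland-like cells with library totals and fkbp7 for creb3l1 loss in notochord-like cells without the set term. The exceptions, given as genes called of the 5, were xbp1 loss in notochord-like cells with 1 by DESeq2 and 2 without the low-count filter (0 as reported), creb3l1 loss in hatching gland-like cells with 3 without the filter (0), and quadruple loss in all other cells with 1 by DESeq2 and 1 without the filter (0). For the difference between cell types under creb3l1 loss, library totals gave 1 and no filter 2 (0). Among terms added after the data were seen, the departure from additivity in notochord-like cells gave 2 without the filter (0), and the joint loss gave 3 without the filter and 0 without the set term in hatching gland-like cells (1) and 1 without the set term in all other cells (3). Filtering fewer genes changes the number of tests and the fitted spread, and the cause was not tested further. With 1 library left out, the counts ran from 0 to 5 for creb3l1 loss in notochord-like cells (5), 0 to 1 in hatching gland-like (0) and in all other cells (0), 1 to 2 for quadruple loss in hatching gland-like cells (3), 0 to 2 and 1 to 4 for the joint loss in hatching gland-like (1) and other cells (3), and 1 to 3 and 0 to 1 for the difference between cell types under xbp1 (3) and creb3l1 loss (0). The median of the 5 genes in hatching gland-like against other cells changed sign, at -0.23 with library totals and 0.17 as reported. Medians near 0 with no gene called, for atf6 loss and the departure from additivity, also changed sign under some alternatives. Over all genes, calls for xbp1 loss in notochord-like cells numbered 20 by edgeR, 54 by DESeq2, 191 without the filter and 10 without the set term, and for creb3l1 loss 128, 181, 383 and 88, with 75 under the injection term. For creb3l2 loss there were 263, 247, 345 and 154. In hatching gland-like cells xbp1 loss gave 774, 805, 986 and 602, and creb3l1 loss 100, 141, 469 and 41. In all other cells creb3l1 loss gave 440, 1029, 494 and 273. Quadruple loss gave, by edgeR, DESeq2 and without the filter, 244, 281 and 519 calls in notochord-like cells, 341, 408 and 701 in hatching gland-like cells, and 60, 392 and 409 in all other cells.

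Replicate numbers are shared by tyr crispant, wild type, creb3l1 mutant and quadruple libraries. Same-numbered libraries deviated together in some pairs of groups and apart in others (correlations of -0.328 to 0.416). The numbers were therefore not taken to pair them. With a replicate block the quadruple comparison called 5 of 5 genes in notochord-like cells, 2 of 4 in hatching gland-like cells, where fkbp9 was at -1.54 (adjusted p = 0.0614), and 0 of 5 in all other cells.

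Depth limits the low levels: fkbp10b and fkbp14 in hatching gland-like cells at 12 hpf rest on at most 16 and 60 UMIs a library.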

Other observations

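Among the 3 libraries that lost creb3l1 alone, fkbp7 in notochord-like cells was at 1016 CPM in creb3l1 mutant 1, in the range of the tyr crispant of its Cell Ranger set (1013 CPM), and at 387 and 381 CPM in creb3l1 mutant 2 and the creb3l1 crispant, which belong to the other set. The controls of that other set were higher, at 834 CPM in tyr crispant 2 and 703 and 609 CPM in wild type. Fkbp11 was at 595, 440 and 562 CPM in the 3 libraries that lost creb3l1 alone. In the unnamed cluster led by aplnr2, admp and noto, which held 12 to 44 cells a library, fkbp7 was at 62.0, 76.2, 51.6, 44.9 and 79.0 CPM in atf6+creb3l2+creb3l1, creb3l2+creb3l1, xbp1+creb3l2+creb3l1 and quadruple 1 and 2, and at 411 and 413 CPM in the tyr crispants.

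At 8 hpf, fkbp11 in the 2 mCherry libraries, which differ in background and dose, was at 101 CPM in hatching gland-like and 84.1 CPM in notochord-like cells of embryos that were not crispants (125 pg), and at 13.4 and 11.5 CPM in xbp1 crispants (40 pg). With 1 library each this difference has no test.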
